A study of Mus musculus with 8 samples.

Results

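Blood cells carry a set of phosphatases and related proteins that switch receptor signals off or set their threshold, and 9 genes for such proteins were followed in mouse tumours: Ptpn7, Ptpn6, Ptpn22, Ptprc, Ptprcap, Ubash3a, Ubash3b, Inpp5d and Dusp2. Gene positions are RefSeq's on GRCm38.p6. The genes were taken by symbol from a table of 18251 genes, and all 9 were found and passed the filter on low counts, which kept 13436 genes. Ptpn7 and Ubash3a were selected on measured values, partly for the difference in their counts between the groups compared here, so for them the difference is a description and no p-value is given.

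Bulk mRNA libraries were made from 0.1 g of each tumour. MC38, a colon cancer line of the mouse, was injected under the skin of the armpit of male C57 mice aged 7 weeks. The cells of both groups carried TetOn-CXCL14, which makes the chemokine CXCL14 when doxycycline (DOX) is present. For the DOX group (4 tumours), DOX was in the drinking water at 1 mg/mL over 3 days. The control group (4 tumours) was untreated, and the labels name 300 mm³ both as the size when DOX began and as the size at harvest. DOX-treated tumours without the construct are not among the samples, so DOX and CXCL14 cannot be told apart as a source of any difference. Whether the line is 1 clone is not stated. The libraries held between 18685975 and 19307481 counts. Cxcl14 itself stood at 15.8 to 30.2 CPM (counts scaled to the library's size by TMM) in DOX tumours and 8.30 to 9.69 CPM in control tumours. It did not pass the adjusted threshold of the edgeR test given below. Of the 9 listed colon epithelium markers 7 were in the table, and Epcam, the epithelial adhesion molecule, had 2 to 7 counts in DOX tumours and 0 to 5 counts in control tumours, so this defining marker of epithelium was near 0 in both groups, and Krt19 and Cdx2 are not analysed here. On the first principal component (39.6% of the variance of all tested genes), DOX tumour 1 lay at -10.5, among the control tumours (-27.3 to -9.4), while the other DOX tumours lay between 14.9 and 43.1. In bulk tumours, fewer cells of a type and less RNA per cell cannot be told apart.

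Signals from antigen receptors and Fc receptors run through tyrosine kinases of the Src and Syk families to MAP kinases and phosphoinositides. CD45, the product of Ptprc, is abundant on all nucleated blood cells and removes an inhibitory phosphate from Src kinases, while the other phosphatases here mostly act further along as brakes. Some are restricted to T and other lymphoid cells and some are also strong in macrophages, which are common in MC38 tumours.

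The members varied together across tumours. Pearson's r of log2 CPM over the 8 tumours was taken with group means removed. Over the 36 pairs of members it ran between 0.55 and 0.96 with a median of 0.83, in libraries that all pairs share. Pairs of genes outside the members were not summarised, so whether such values are particular to the members was not tested. With the mean of the T cell marker list, r ran from 0.78 for Ubash3b to 0.96 for Ptprcap. Other lists gave high values as well. For the macrophage list r ran from 0.56 for Ubash3b to 0.94 for Ptpn7. The leukocyte list gave 0.62 for Ubash3b and up to 0.93, for Ptpn7 and Ptpn6. With tyrosine phosphatases outside the members, r ran from 0.50 for Ptpn7 to 0.91 for Ubash3a. Sequences before listed transcription starts of these genes are shown as a description, and shared regulation of the members was not tested. RefSeq's table for GRCm38.p6 held 12 transcription starts for 8 of the members. The hexamer GGAAGT, the core recognised by ETS transcription factors such as PU.1, was searched on both strands in the whole 250 bases before each start. It was found before at least 1 start of 4 of the 8 members (5 of 12 starts, of which both Ptprc starts share 1 site), while 19.7% of the 32851 starts in the table held it. The GC box GGGCGG was present in 4 of 12 starts against 32.7% of all starts, and the RUNX core TGTGGT in 1 of 12 against 14.0%. A match is a description of these letters and no evidence of binding. The stretches before the most upstream listed start of the 4 members with GGAAGT follow, read in the direction of transcription. Bases in annotated exons are left out, and GGAAGT or its reverse complement is in capitals. The stretches of Ptpn22 and Ptprc lie inside the gene spans given below, so they are not upstream of the whole gene.
Ptpn6, chr6:124738715-124738959, minus strand: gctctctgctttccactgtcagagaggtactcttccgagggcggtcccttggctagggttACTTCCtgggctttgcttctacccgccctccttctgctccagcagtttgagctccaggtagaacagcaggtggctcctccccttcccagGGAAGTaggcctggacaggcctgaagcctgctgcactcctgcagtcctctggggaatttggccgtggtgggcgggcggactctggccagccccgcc
Ptpn22, chr3:103859545-103859794, plus strand: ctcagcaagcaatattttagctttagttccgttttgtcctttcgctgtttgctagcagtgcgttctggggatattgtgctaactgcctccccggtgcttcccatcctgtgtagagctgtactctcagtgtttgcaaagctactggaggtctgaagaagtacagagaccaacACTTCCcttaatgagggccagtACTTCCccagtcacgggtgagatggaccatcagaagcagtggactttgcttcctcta
Ptprc, chr1:138175307-138175555, minus strand: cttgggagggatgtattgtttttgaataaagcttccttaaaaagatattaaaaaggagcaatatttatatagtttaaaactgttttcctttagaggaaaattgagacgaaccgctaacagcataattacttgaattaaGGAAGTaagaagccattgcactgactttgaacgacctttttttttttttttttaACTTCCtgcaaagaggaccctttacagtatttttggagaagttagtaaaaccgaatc
Inpp5d, chr1:87620062-87620311, plus strand: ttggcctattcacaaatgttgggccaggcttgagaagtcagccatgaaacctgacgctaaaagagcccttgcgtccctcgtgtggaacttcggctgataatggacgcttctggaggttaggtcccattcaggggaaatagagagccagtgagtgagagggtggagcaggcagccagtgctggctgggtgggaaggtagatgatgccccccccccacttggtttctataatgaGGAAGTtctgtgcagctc
Ptpn6 and Ptprc each hold the letters once on each strand, Ptpn22 holds them at 2 places on the opposite strand, and Inpp5d holds them once, 18 bases before its start.

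All 9 genes had higher fitted levels in DOX tumours, where 46.8% of all tested genes were on that side and 53.2% on the lower, and their fitted folds lay between 1.17 for Ubash3b and 2.64 for Ubash3a. The median log2 fold change of the 9 was 0.62, and that of the 7 not chosen for their change was also 0.62, where the median of all tested genes was -0.01. In edgeR's quasi-likelihood test with Benjamini-Hochberg adjustment over all 13436 genes, 0 of the 7 testable members passed 0.05, and the share of all genes called higher by that rule was 0.00744%, a single gene, Adgrg1. At an unadjusted p below 0.05, 6 of the 7 were higher and 0 lower, where 7.65% of all genes were higher and 3.95% lower. DESeq2 called 0 of the 7 and 0.468% of all genes as higher. The DOX tumours lay above all control tumours in 4 of the 9 members (2 of the 7), where 3.23% of all tested genes did so and 2.43% were separate the other way. On the FPKM scale, which is per gene length, Ptpn22 and Inpp5d no longer separated the groups: the lowest DOX tumour had 5.43 FPKM of Ptpn22 against 5.46 FPKM in the highest control tumour, and 14.9 FPKM of Inpp5d against 15.1 FPKM. Since the members were chosen with results of these data known, nothing is read from these shares.

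**Figure D1:**
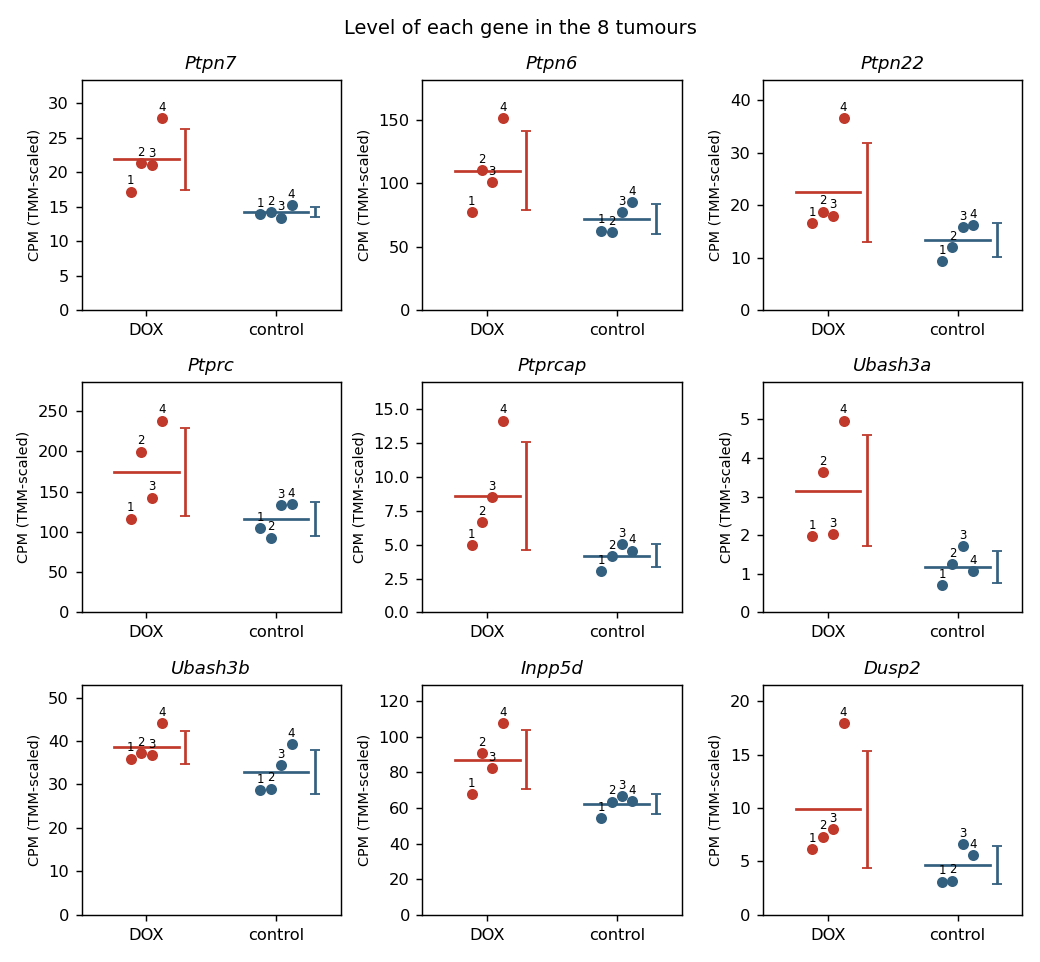
CPM of each gene (y axes from 0) in DOX tumours (red) and control tumours (blue), 4 each, with the tumour number beside each point, the mean as a line and the SD as a bar. DOX tumour 4 is the highest and DOX tumour 1 the lowest DOX tumour in all 9 panels, and the groups are separate for Ptpn7, Ptpn22, Ubash3a and Inpp5d.

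The members ranked the DOX tumours in much the same way. DOX tumour 4 had the highest level of all 9 genes, and DOX tumour 1 the lowest of the DOX tumours in all 9. Among all tumours, the lowest level was in control tumour 1 for 6 genes, control tumour 2 for 2 and control tumour 3 for 1. The coefficient of variation was larger among DOX tumours than among control tumours in 8 of the 9, with Ubash3b as the exception. Without DOX tumour 1, the groups were separate in 8 of the 9 members, and 9.62% of all tested genes were then separate on the higher side. Without control tumour 3 the count was 6, where 5% of all tested genes were separate, and without DOX tumour 4 it was 4, where 3.59% were.

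Of the cytoplasmic tyrosine phosphatases, Ptpn7 (chr1:135131838-135145328, plus strand) encodes HePTP, which in blood cells removes phosphate from the MAP kinases ERK and p38. Ptpn7 stood at 17.2, 21.3, 21.1 and 27.8 CPM in DOX tumours 1 to 4 and at 13.9, 14.2, 13.4 and 15.2 CPM in control tumours 1 to 4. The control tumours were tight, with a coefficient of variation of 5.26% against 20.2% among DOX tumours, and the lowest DOX tumour had 1.13 times the highest control level. The log2 fold change was 0.62 ± 0.13 (SE), which 5.03% of all tested genes exceeded, with group means of 21.9 ± 4.41 CPM in DOX and 14.2 ± 0.746 CPM in control tumours (SD, n = 4 each). The deposited Ptpn7 count was whole in 1 of 8 libraries.

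Ptpn6 (chr6:124720707-124738709, minus strand) encodes SHP-1, which inhibitory receptors recruit through phosphorylated ITIM motifs and which damps Syk-family and cytokine signals. It stood at 77.3, 110.7, 100.8 and 151.5 CPM in DOX tumours 1 to 4 and at 62.7, 61.4, 77.5 and 85.2 CPM in control tumours 1 to 4. DOX tumour 1 lay within the control range and the other DOX tumours above it. Its log2 fold change was 0.62 ± 0.20 (SE, edgeR adjusted p = 0.387), which 5.13% of all tested genes exceeded, with means of 110.1 ± 31.0 CPM in DOX and 71.7 ± 11.6 CPM in control tumours (SD, n = 4 each). Whether reads were counted by strand is not stated, and 195 exonic bases of Ptpn6 lie opposite the antisense gene Gm20531.

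Ptpn22 (chr3:103856575-103912252, plus strand) encodes a lymphoid phosphatase that works with the kinase CSK and acts on Lck and Zap70. It stood at 16.6, 18.8, 18.0 and 36.6 CPM in DOX tumours 1 to 4 and at 9.34, 11.9, 15.8 and 16.2 CPM in control tumours 1 to 4. The groups did not overlap, but by little, since DOX tumour 1 had 1.02 times the level of control tumour 4. Its log2 fold change of 0.75 ± 0.29 (SE, edgeR adjusted p = 0.397) was exceeded by 3.55% of all tested genes, and it was 0.42 without DOX tumour 4, which had 2.06 times the mean of the other DOX tumours. The Ptpn22 count was whole in 1 of 8 libraries. Its FPKM was 14.8 ± 2.36% of that of Ptpn6 in DOX tumours and 13.2 ± 2.33% in control tumours (SD, n = 4 each), with overlapping groups.

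The receptor-type phosphatase gene Ptprc (chr1:138062859-138175756, minus strand), which encodes CD45, had the highest CPM of the members. It stood at 116.6, 199.8, 142.6 and 238.4 CPM in DOX tumours 1 to 4 and at 104.8, 93.0, 133.2 and 135.0 CPM in control tumours 1 to 4. DOX tumour 1 was at the control mean and below control tumours 3 and 4, so the groups overlapped. A log2 fold change of 0.58 ± 0.23 (SE, edgeR adjusted p = 0.401) was fitted, which 5.8% of all tested genes exceeded, with means of 174.3 ± 55.1 CPM in DOX and 116.5 ± 20.9 CPM in control tumours (SD, n = 4 each).

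Ptprcap (chr19:4154646-4156710, plus strand) encodes a small membrane protein that binds CD45 in lymphocytes. It stood at 4.97, 6.69, 8.51 and 14.2 CPM in DOX tumours 1 to 4 and at 3.06, 4.15, 5.03 and 4.56 CPM in control tumours 1 to 4. DOX tumour 1 was just under control tumour 3, at 0.987 times its level, and the other DOX tumours were above every control. Ptprcap had a log2 fold change of 1.03 ± 0.31 (SE, edgeR adjusted p = 0.387), exceeded by 1.76% of all tested genes, or 0.68 without DOX tumour 4. Ptprcap made up 29.7 ± 7.87% of the Ptprc level per gene length (FPKM) in DOX tumours and 22.1 ± 4.01% in control tumours (SD, n = 4 each), and the groups overlapped. Its exons share 1224 bases with Rps6kb2 on the opposite strand and 432 bases with Coro1b on the same strand in GENCODE M21. Between the groups Rps6kb2 stood at 20.9 to 21.9 CPM in DOX and 20.6 to 23.5 CPM in control tumours, and Coro1b at 204 to 253 CPM in DOX and 197 to 216 CPM in control tumours, and the Ptprcap counts were whole in 8 of 8 libraries.

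The paired genes Ubash3a (chr17:31207868-31259681, plus strand) and Ubash3b (chr9:41010760-41161692, minus strand) encode TULA and TULA-2, proteins with a histidine-phosphatase domain. Ubash3a is known from T cells, where it restrains receptor signalling, while Ubash3b is more widely expressed and is the more active enzyme toward Zap70 and Syk. Ubash3a was the lowest member, at 1.97, 3.63, 2.04 and 4.97 CPM in DOX tumours 1 to 4 and at 0.710, 1.24, 1.71 and 1.07 CPM in control tumours 1 to 4. Its counts ran from 13 to 93 reads per library, so counting error is larger for it than for the other members. The groups did not overlap, with the lowest DOX tumour at 1.15 times the highest control tumour, and the fitted log2 fold change was 1.40 ± 0.37 (SE), which 0.685% of all tested genes exceeded.

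Ubash3b stood at 36.0, 37.1, 36.8 and 44.1 CPM in DOX tumours 1 to 4 and at 28.7, 29.0, 34.4 and 39.2 CPM in control tumours 1 to 4. DOX tumours 1 to 3 lay below control tumour 4, and the log2 fold change of 0.23 ± 0.11 (SE, edgeR adjusted p = 0.462) was the smallest of the members and was exceeded by 14.5% of all tested genes. The FPKM of Ubash3a as a share of that of Ubash3b was 8.13%, 14.4%, 8.55% and 16.9% in DOX tumours 1 to 4 and 3.83%, 6.31%, 7.30% and 4.01% in control tumours 1 to 4. Every DOX tumour was above every control tumour in this share. Ubash3a was chosen for its own difference, so the share has no test.

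Inpp5d (chr1:87620312-87720510, plus strand) encodes SHIP-1, a lipid phosphatase that limits phosphoinositide signalling in blood cells. It stood at 68.0, 91.0, 82.2 and 107.7 CPM in DOX tumours 1 to 4 and at 54.1, 63.6, 66.8 and 64.0 CPM in control tumours 1 to 4. The groups did not overlap, with DOX tumour 1 at 1.02 times control tumour 3. For Inpp5d the log2 fold change was 0.49 ± 0.13 (SE, edgeR adjusted p = 0.387), which 7.61% of all tested genes exceeded, with means of 87.2 ± 16.6 CPM in DOX and 62.1 ± 5.54 CPM in control tumours (SD, n = 4 each). DESeq2 gave an adjusted p of 0.0641, the smallest that the 7 members reached in any setting tried.

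Dusp2 (chr2:127336159-127338377, plus strand) encodes an inducible nuclear phosphatase of MAP kinases that is turned on when leukocytes are activated. It stood at 6.16, 7.32, 8.04 and 17.9 CPM in DOX tumours 1 to 4 and at 3.11, 3.21, 6.64 and 5.63 CPM in control tumours 1 to 4. The control tumours formed a low and a high pair, and DOX tumour 1 lay below control tumour 3. Dusp2 had a log2 fold change of 1.08 ± 0.40 (SE, edgeR adjusted p = 0.390), exceeded by 1.5% of all tested genes, or 0.63 without DOX tumour 4, which had 2.50 times the mean of the other DOX tumours.

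**Figure D2:**
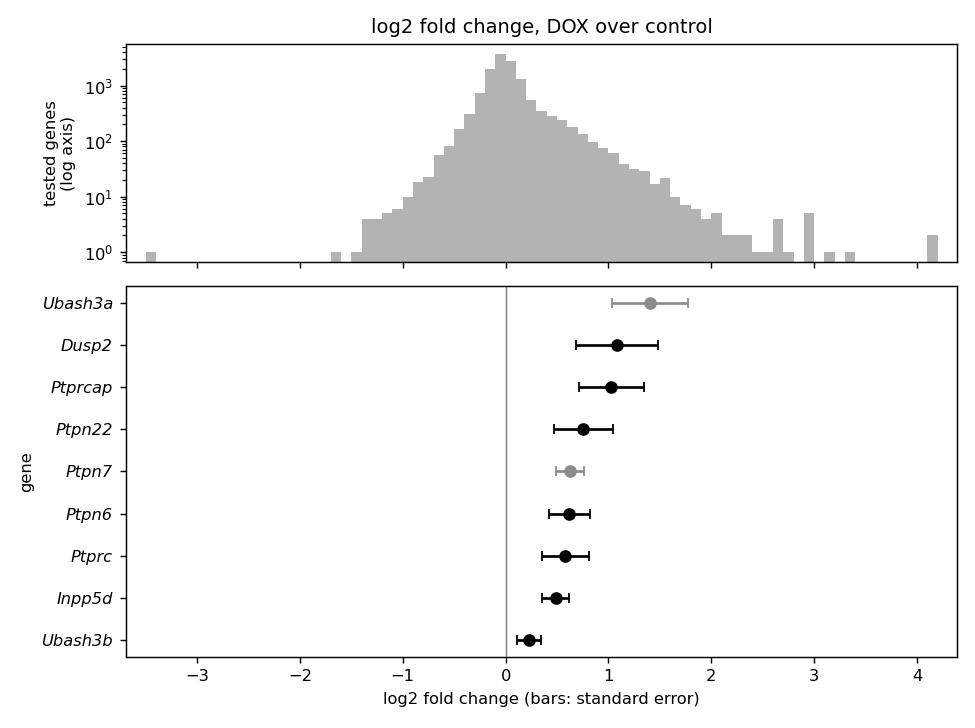
Log2 fold change, DOX over control, of all 13436 tested genes (upper, log count axis) and of the 9 members with the standard error (lower; Ptpn7 and Ubash3a, chosen partly for this difference, in grey). All 9 members lie to the right of 0, from Ubash3b at 0.23 to Ubash3a, on the right flank of the distribution.

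Levels between genes can be set side by side only per gene length. In FPKM the order of the means in DOX tumours was Ptpn6 at 50.1, Ptprc at 35.8, Inpp5d at 19.7, Ptprcap at 10.7, Ubash3b at 8.82, Ptpn22 at 7.55, Ptpn7 at 6.66, Dusp2 at 6.24 and Ubash3a at 1.08. In control tumours the order was the same except that Ubash3b, at 7.63, stood above Ptprcap, at 5.28. The ranges of the DOX tumours overlapped between neighbours in that order except between Ptprc and Inpp5d and between Dusp2 and Ubash3a. In control tumours Inpp5d was separate from Ubash3b as well, with 12.45 FPKM at least against 9.23 FPKM at most. SHP-1 and CD45 messages, which lymphoid and myeloid cells share, were the most abundant of the members, and the T cell gene Ubash3a the scarcest, at 0.410 FPKM on average in control tumours.

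**Figure D3:**
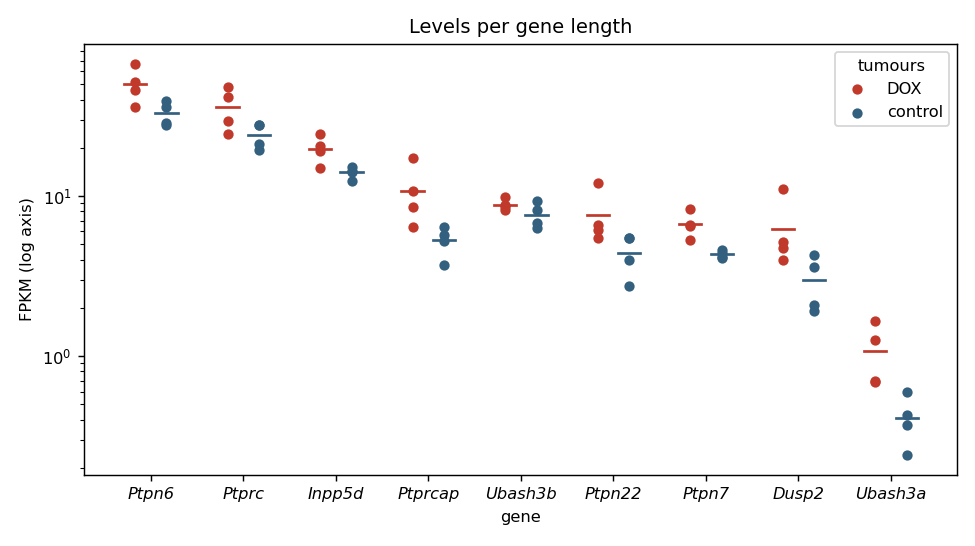
FPKM of each member (log axis) in DOX tumours (red) and control tumours (blue), 4 each, with the mean as a line, ordered by the DOX mean. Levels run from 67.1 FPKM for Ptpn6 in DOX tumour 4 to 0.240 FPKM for Ubash3a in control tumour 1.

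Leukocyte, T cell, macrophage, natural killer cell, dendritic cell, neutrophil and skeletal muscle marker lists had higher mean levels in DOX tumours beside the members. EdgeR's adjusted threshold called 0 markers in any list, and the part of these lists in the members' differences was not tested. The 12 pan-leukocyte genes, none of them a member, were all on the higher side with a median log2 fold change of 0.57, 11 at an unadjusted p below 0.05, 0 past the adjusted threshold of edgeR and 0 with DESeq2. Their mean log2 CPM was 6.01, 6.56, 6.32 and 7.07 in DOX tumours 1 to 4 and 5.92, 5.75, 5.97 and 5.99 in control tumours 1 to 4, so DOX tumour 4 was highest there as well. The cytoskeletal leukocyte gene Coro1a stood at 98.1 ± 29.3 CPM in DOX and 66.6 ± 7.90 CPM in control tumours (SD, n = 4 each). The 8 T cell markers had a median of 1.24, all 8 were higher with unadjusted p-values below 0.05, DESeq2 called 1 of them, Cd3d, and their summed level was 65.7 to 142 CPM in DOX and 46.5 to 57.4 CPM in control tumours. The 8 macrophage markers had a median of 0.58, 6 were higher with unadjusted p-values below 0.05, DESeq2 called 4 of them (Csf1r and, named after their values were seen, C1qb and C1qc, beside C1qa), with sums of 2500 to 4390 CPM in DOX and 1870 to 2180 CPM in control tumours. Of the 7 B cell markers 2 passed the filter, with summed levels of 2.23 to 4.70 CPM in DOX and 2.68 to 3.59 CPM in control tumours. Markers of skeletal muscle, a tissue beside the graft, had sums of 14.9 to 156 CPM in DOX and 2.57 to 42.7 CPM in control tumours over the 7 tested of 8. Their median of 1.94 was the largest of the marker lists. All 7 were on the higher side, 5 of them at an unadjusted p below 0.05 in edgeR, and DESeq2 called 0. Medians were 0.41 for 6 natural killer cell markers, 0.49 for 6 dendritic cell markers, 0.39 for 3 neutrophil markers, 0.04 for 3 platelet markers, -0.13 for 6 fibroblast markers and -0.05 for 6 endothelial markers. Every tested natural killer cell, dendritic cell and neutrophil marker was on the higher side. The mean log2 CPM of the dendritic cell markers was 1.993 to 2.890 in DOX and 1.765 to 1.896 in control tumours. On the lower side were 2 erythroid markers with a median of -0.78, 2 skin markers with -0.27, the 2 B cell markers with -0.12 and 1 fat marker with -0.53. No marker in the table was at 0 in every tumour.

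**Figure D4:**
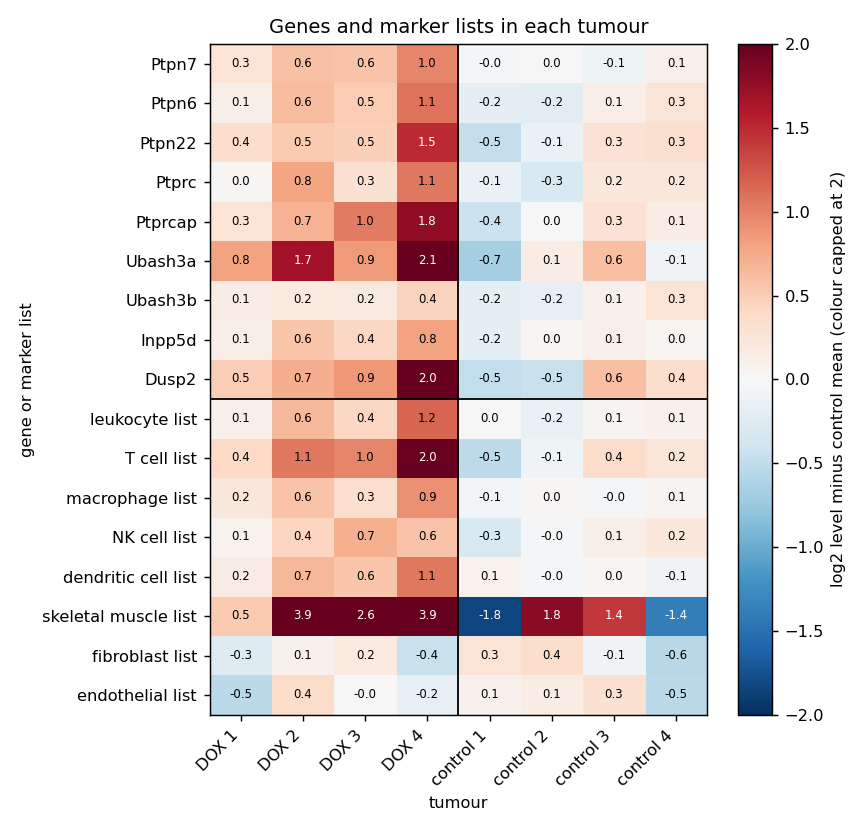
Log2 level in each tumour minus the mean of the 4 control tumours, for the members (log2 CPM, above the line) and the mean of marker lists (log2 CPM with a prior count of 2, below), DOX tumours on the left. The column of DOX tumour 4 is the reddest among the members, as it is for the leukocyte, T cell and macrophage lists.

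Set against the leukocyte genes of the same tumour, no member separated the groups. The difference of a member's log2 CPM from the leukocyte mean was 0.25 ± 0.07 in DOX and 0.24 ± 0.16 in control tumours for Ptpn6, and 0.90 ± 0.12 in DOX and 0.94 ± 0.17 in control tumours for Ptprc (SD, n = 4 each). For Ptpn7 it was -2.05 ± 0.18 in DOX and -2.07 ± 0.12 in control tumours, and for Inpp5d -0.06 ± 0.18 in DOX and 0.05 ± 0.17 in control tumours. These 4 differed between the groups by less than the spread between tumours, as did Ptpn22. Ubash3a was -4.89 ± 0.26 in DOX and -5.60 ± 0.49 in control tumours, a gap of 0.71. Dusp2 had a gap of 0.43 and Ptprcap one of 0.35, while Ubash3b had one of -0.35, at -1.22 ± 0.33 in DOX and -0.88 ± 0.16 in control tumours. Without control tumour 1 the gap was 0.26 for Dusp2 and 0.20 for Ptprcap, and without DOX tumour 4 it was -0.22 for Ubash3b. The groups overlapped for all 9 members on this scale. Against the T cell markers in place of the leukocyte genes, Ubash3a had a gap of 0.19 and Dusp2 one of -0.09, while Ptpn6, Ptprc and Inpp5d lay lower in every DOX tumour than in any control tumour, with gaps of -0.51, -0.56 and -0.63. For Inpp5d the highest DOX and the lowest control tumour were both at 3.79, so that separation rests on later decimals.

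**Figure D5:**
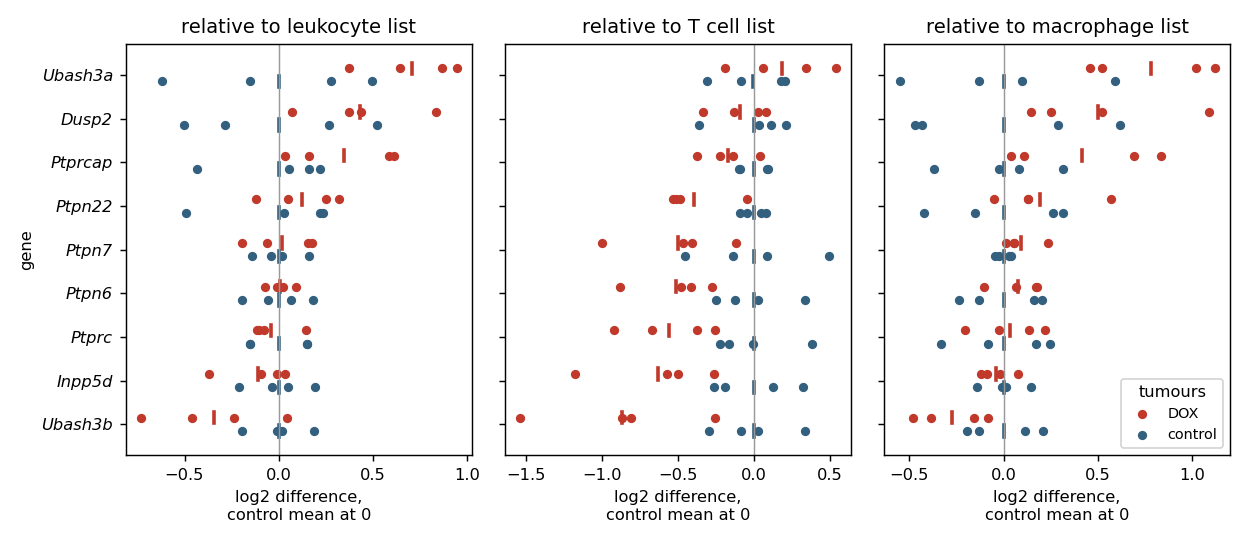
Log2 level of each member relative to the leukocyte, T cell or macrophage marker list of the same tumour (x axes, control mean at 0) in DOX tumours (red) and control tumours (blue), 4 each, with means as bars. Against the leukocyte list the colours overlap in every row, with Ubash3a at the right and Ubash3b at the left.

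The genes that the members act on or with were compared through lists of the pathway. Of 16 kinases, adaptors and lipases that receive or oppose the phosphatases, 15 were on the higher side, with a median log2 fold change of 0.59 (0.36 without DOX tumour 4). Unadjusted p-values were below 0.05 for 11, all higher, while edgeR's adjusted threshold called 0 and DESeq2 3. Zap70, the T cell receptor kinase, stood at 8.56 ± 3.50 CPM in DOX and 3.34 ± 1.06 CPM in control tumours (SD, n = 4 each), with a log2 fold change of 1.35 ± 0.33 (SE, edgeR adjusted p = 0.387). Its relative Syk, the kinase of B and myeloid cells, had 0.73 ± 0.25 (SE), the Src kinase Lck of T cells 0.90 ± 0.31 (SE) and Lyn, a Src kinase of myeloid and B cells, 0.43 ± 0.15 (SE). Fyn, which many cell types express, had 0.06 ± 0.07 (SE), at 74.6 ± 3.93 CPM in DOX and 71.8 ± 4.85 CPM in control tumours (SD, n = 4 each).

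Among 18 inhibitory receptors whose tails recruit SHP-1, SHP-2 or SHIP-1, 17 were on the higher side with a median of 0.52 (0.31 without DOX tumour 4). Of these 8 were higher at an unadjusted p below 0.05, and edgeR's adjusted threshold and DESeq2 called 0. The exhaustion receptor gene Pdcd1 stood at 12.2 ± 9.61 CPM in DOX and 4.16 ± 2.17 CPM in control tumours (SD, n = 4 each), with a log2 fold change of 1.54 ± 0.59 (SE). Cd22, a sialic acid receptor of B cells, had 1.07 ± 0.36 (SE), and Fcgr2b, the inhibitory Fc receptor, had 0.39 ± 0.22 (SE). Among 21 tested intracellular brakes of other kinds, 18 were on the higher side with a median of 0.28 (0.17 without DOX tumour 4), 8 were higher at an unadjusted p below 0.05, and edgeR's adjusted threshold and DESeq2 called 0. Pag1, the membrane anchor of CSK, had 0.21 ± 0.08 (SE) and the adaptor gene Dok1 0.34 ± 0.12 (SE), while the ubiquitin ligase gene Cbl had -0.04 ± 0.07 (SE).

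The remaining 3 lists held relatives of the members, whose medians were near that of all genes while single genes were not. Of 23 tested tyrosine phosphatases outside the members, 7 were on the higher side, with a median of -0.05, and 4 higher and 2 lower had an unadjusted p below 0.05, while edgeR's adjusted threshold and DESeq2 called 0. Ptpn1, a phosphatase of insulin and cytokine receptors, stood at 110.3 ± 16.0 CPM in DOX and 89.3 ± 3.02 CPM in control tumours (SD, n = 4 each), a log2 fold change of 0.30 ± 0.10 (SE) with separate groups. Ptpn2, its closest relative, stood at 70.4 ± 1.55 CPM in DOX and 75.1 ± 13.6 CPM in control tumours (SD, n = 4 each). Of 12 other dual-specificity phosphatases, 5 were on the higher side with a median of -0.02. The early-response gene Dusp1 had 0.02 ± 0.29 (SE), and Dusp6, an ERK phosphatase, -0.05 ± 0.14 (SE). Of 14 other phosphoinositide phosphatases, 7 were on the higher side with a median of 0.01, and DESeq2 called 1 as higher, Inpp5j, named after its values were seen, with a log2 fold change of 1.85 ± 0.53 (SE, edgeR adjusted p = 0.387, DESeq2 adjusted p = 0.0256) and overlapping groups. Inppl1, which encodes the widely expressed relative SHIP-2, had 0.02 ± 0.06 (SE), at 134.1 ± 3.81 CPM in DOX and 132.5 ± 9.69 CPM in control tumours (SD, n = 4 each). No test was run between these lists and the members.

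The genes most like each member were taken from 12837 genes by Pearson's r of log2 CPM over the 8 tumours after each group's mean was removed, so that the group difference itself played no part. The same 8 libraries enter every r, which is given with no test. Ptpn7 was most like Dgka, a diacylglycerol kinase gene (r = 0.992), and Ptpn6 was most like Gmip (r = 0.996), Cyfip2 (0.992) and Dock2 (0.986), the last of them a guanine exchange factor gene of leukocytes on the leukocyte list. Ptprc was most like Osgin1 (r = 0.992), and Inpp5d was most like Cd80 (0.998), a ligand of CD28. Dusp2 was most like the T cell receptor component gene Cd3d (r = 0.990), and Ptprcap had Mocs1 (0.988) and the CD8 co-receptor gene Cd8b1 (0.981). Ubash3a was most like Rilp (0.988) and Ptpn22 most like Fam89b (0.986). Likeness within groups did not always go with a difference between them: Chmp2a, the second nearest to Ptpn7 (r = 0.985), differed by 0.01 ± 0.07 (SE, log2 fold change).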

How the data were processed

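RNA of 8 tumours was analysed from tables of 18251 genes. The authors deposited estimated counts per gene, unscaled, per the file headers; 64.9% of them are whole within 0.005, and all were rounded. The authors also deposited FPKM, scaled to gene length and library size per the file headers, used here for levels between genes and as an alternative. A deposited TPM table has 8 columns that match no sample label and was not used. HISAT, Bowtie2 and GRCm38.p6 are named, without versions or roles, per the submitters' processing notes; which counting tool was used is not stated there. Totals were 18685975 to 19307481 counts per tumour, and the common biological coefficient of variation was 14.7%. Groups and replicate numbers came from sample titles. The tumours came from different mice, as the study's design text gives 4 animals a group.

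DOX and control tumours were compared by edgeR 4.0.16 under R 4.3.3 (filterByExpr, TMM, robust quasi-likelihood F test, Benjamini-Hochberg at 0.05), with the SE as the log2 fold change over the square root of F. Alternatives were DESeq2 1.42.0, RLE scaling, no filter, the replicate number as a block, limma 3.58.1 on log2(FPKM + 1) and leaving out tumours. On counts simulated with edgeR's own dispersion estimates, unchanged genes made up a larger share of DESeq2's calls than its threshold allows. Among edgeR's calls that share stayed close to the threshold. The limit set on false calls was applied to edgeR only, after DESeq2 had failed it. DESeq2's calls are given only beside edgeR's. Members and lists were chosen with earlier results of these data known. Named genes were the members, the first 5 of each pathway list and the first 3 of each marker list in the order written, and the 3 genes most like each member with a mean log2 CPM above 0. A few genes that this rule names are not reported here. Lists and their members' counts are descriptions without a test. Coordinates and promoters are RefSeq's for GRCm38.p6, and overlaps come from GENCODE M21 of the same build.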

Additional observations from a re-analysis of the deposited data

Results flagged for a closer look

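DOX tumour 4 stood apart from the other DOX tumours in 3 members, by a gap to the nearest tumour above Dixon's 95% critical share of the group's range (0.891 of the range for Ptpn22, 0.855 for Ubash3b and 0.840 for Dusp2). Ptpn22 had 36.6 CPM there against 16.6 to 18.8 CPM in the other DOX tumours, Ubash3b 44.1 CPM against 36.0 to 37.1 CPM, and Dusp2 17.95 CPM against 6.16 to 8.04 CPM. Chance flags about 1 in 20 groups, and 18 groups of tumours were examined, all from the same 8 libraries.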

How the results depend on the processing

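Each member stayed on the higher side in DOX tumours in all 14 alternatives, and none of the 7 members with a test passed an adjusted p of 0.05 in any, with adjusted p-values between 0.0641 and 0.896. DESeq2 called 62 genes higher and 20 lower over all genes, where edgeR called 1 and 0; without 1 tumour edgeR called 1 to 2 higher (2 without DOX tumour 4). The cause of these changes was not tested. The members with separate groups numbered 4 to 8 when 1 tumour was left out (8 without DOX tumour 1), where 3.59% to 9.62% of all tested genes were separate on the higher side, a setting also added after seeing the data, and 8 without DOX tumours 1 and 4 together, a setting chosen after seeing the data, where 10.6% of all tested genes were separate on the higher side. Without DOX tumour 4 the log2 fold changes of Ptpn22, Ptprcap and Dusp2 were 0.42, 0.68 and 0.63. On log2(FPKM + 1) that of Ubash3a was 0.54, since the pseudocount is above most of its FPKM values. The median of the other tyrosine phosphatases ranged from -0.076 to -0.022 with 1 tumour left out, that of the kinases and adaptors from 0.36 to 0.74, that of the inhibitory receptors from 0.31 to 0.66 and that of the intracellular brakes from 0.17 to 0.41, the last 3 being lowest without DOX tumour 4. The gap relative to the T cell list in place of the leukocyte list was -0.50 for Ptpn7, -0.51 for Ptpn6, -0.39 for Ptpn22, -0.56 for Ptprc and -0.17 for Ptprcap. It was 0.19 for Ubash3a, -0.86 for Ubash3b, -0.63 for Inpp5d and -0.087 for Dusp2. Relative to the macrophage list the gap was 0.089 for Ptpn7, 0.077 for Ptpn6, 0.195 for Ptpn22, 0.031 for Ptprc and 0.417 for Ptprcap. On that scale Ubash3a had 0.778, Ubash3b -0.276, Inpp5d -0.04 and Dusp2 0.5. Tumours of the same replicate number did not deviate together (r between -0.03 and 0.09, and 0 of 4 DOX tumours correlated best with the control of its own number), so the numbers were not taken as pairs; with the replicate number as a block edgeR called 1 gene higher and 0 lower, and Inpp5d had a log2 fold change of 0.47 (adjusted p = 0.182). Depth limits Ubash3a, with 13 to 93 counts per library.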
